A study of Mus musculus with 12 samples.

Results

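Extracellular proteolysis genes were followed in mouse embryonic fibroblasts (MEFs) that had received cardiac transcription factors. The genes were those whose symbol is Mmp, Adam, Adamts or Timp with a number and an optional final letter, on probe sets annotated with a single symbol. This rule found 54 of the 12393 genes on the array, namely 18 Mmp, 25 Adam, 7 Adamts and 4 Timp genes, measured by 83 probe sets. Each gene was read at its brightest probe set, by the mean of the 12 arrays, and 19 of the 54 genes had more than 1.

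Cells of the C57BL/6 strain carried a lentivirus for M2rtTA, a doxycycline-controlled transactivator, in every group. The negative control received M2rtTA alone. TF group 1 also received GATA4, TBX5 and MEF2C, TF group 2 those 3 with Mesp1 and SMARCD3, and TF group 3 those 5 with MYOCD and SRF. All cells were kept with doxycycline for 7 days, and per the study's methods also with valproic acid, an inhibitor of histone deacetylases, and additional serum. Each group gave 3 arrays that the labels call biological replicates (n = 3 throughout), 12 in all, from RNA of the whole unsorted culture. The number of viruses rose with the number of factors (0, 3, 5 and 7), so the identity of the factors and the load of virus cannot be told apart.

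Matrix metalloproteinases (MMPs) are zinc enzymes that cut collagens, proteoglycans and other matrix proteins, and most are secreted as inactive precursors. ADAMs are membrane proteins of the same wider superfamily, several of which release growth factors and receptors from the cell surface, while others have lost the catalytic site and act in adhesion. ADAMTS enzymes are secreted, and a subset cuts the large proteoglycans versican and aggrecan. TIMPs are the secreted inhibitors of these enzymes. In fibroblasts the balance between them sets how fast matrix is turned over, and in the developing heart proteolysis of versican accompanies the shaping of the ventricular wall and the valves.

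Signals are given as log2 of the deposited linear signal, and a difference of 1 on this scale is a factor of 2. A gene was called higher or lower where the Benjamini-Hochberg adjusted p of limma, over all 22626 probe sets, was under 0.05 and the fold change over 1.5. Where the lower group mean was below a log2 signal of 5 (a signal of 32), the fold was taken against 5 as a lower bound and is written with the words at least. Array medians lay between signals of 131.5 and 149.7, and 20.4% to 24.2% of probe sets of an array were below 32. Correlations between arrays were 0.960 to 0.966 within groups and 0.922 to 0.933 between TF and control arrays. Mesp1, delivered to TF groups 2 and 3 alone, lay between 10.29 and 11.07 on their 6 arrays and between 6.46 and 7.49 on the other 6. It checks that split of the labels, but not TF group 1 against the control or TF group 2 against TF group 3. Of 12 fibroblast markers, none had a mean below 5 in any group. The poly-A spike controls were 0.81 higher on TF arrays than on control arrays. Scaling the arrays to these spikes moved the median log2 change of all genes from 0.07, 0.06 and 0.05 in TF groups 1, 2 and 3 to -0.83, -0.68 and -0.74, and centring each array on its median moved it to -0.06, -0.04 and -0.06. Changes below are on the deposited scale. For the Mmp, Adam, Adamts and Timp genes, the value with spike scaling stands beside those calls against the control that it removed or turned. For the related genes described after them, it is given only where spike scaling turned the direction. Over all comparisons, spike scaling removed 47 calls of related genes and turned 5. A related gene's call printed without such a value was therefore not necessarily kept.

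The genes did not move as a family. In TF group 1, 4 of the 54 were higher than in the negative control and 6 lower, beside 15.1% of all genes called higher and 8.93% called lower. In TF group 2, 6 were higher and 6 lower (15.3% and 10.1% of all genes). In TF group 3, 6 were higher and 6 lower as well (14.7% and 9.84%). The called shares of the 54 were thus 18.5%, 22.2% and 22.2% in either direction, against 24%, 25.4% and 24.5% of all genes. Their median log2 change was 0.10, -0.09 and -0.00. With spike scaling the counts were 0 higher and 27 lower, 2 and 26, and 3 and 23, so that 50%, 48.1% and 42.6% of the 54 were lower, beside 55.3%, 44.4% and 48.4% of all genes. The 3 comparisons share the 3 control arrays. Timp3 and Adam15 were higher in all 3 groups (9.64% of all genes were), and Adam12, Adamts1, Adamts5 and Mmp3 were lower in all 3 (6.2% of all genes were). Of the 54, 22 differed among the 4 groups by limma's F test (40.7%, against 49.8% of all genes). In RNA of whole cultures, fewer cells of a type and less RNA per cell cannot be told apart.

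**Figure D1:**
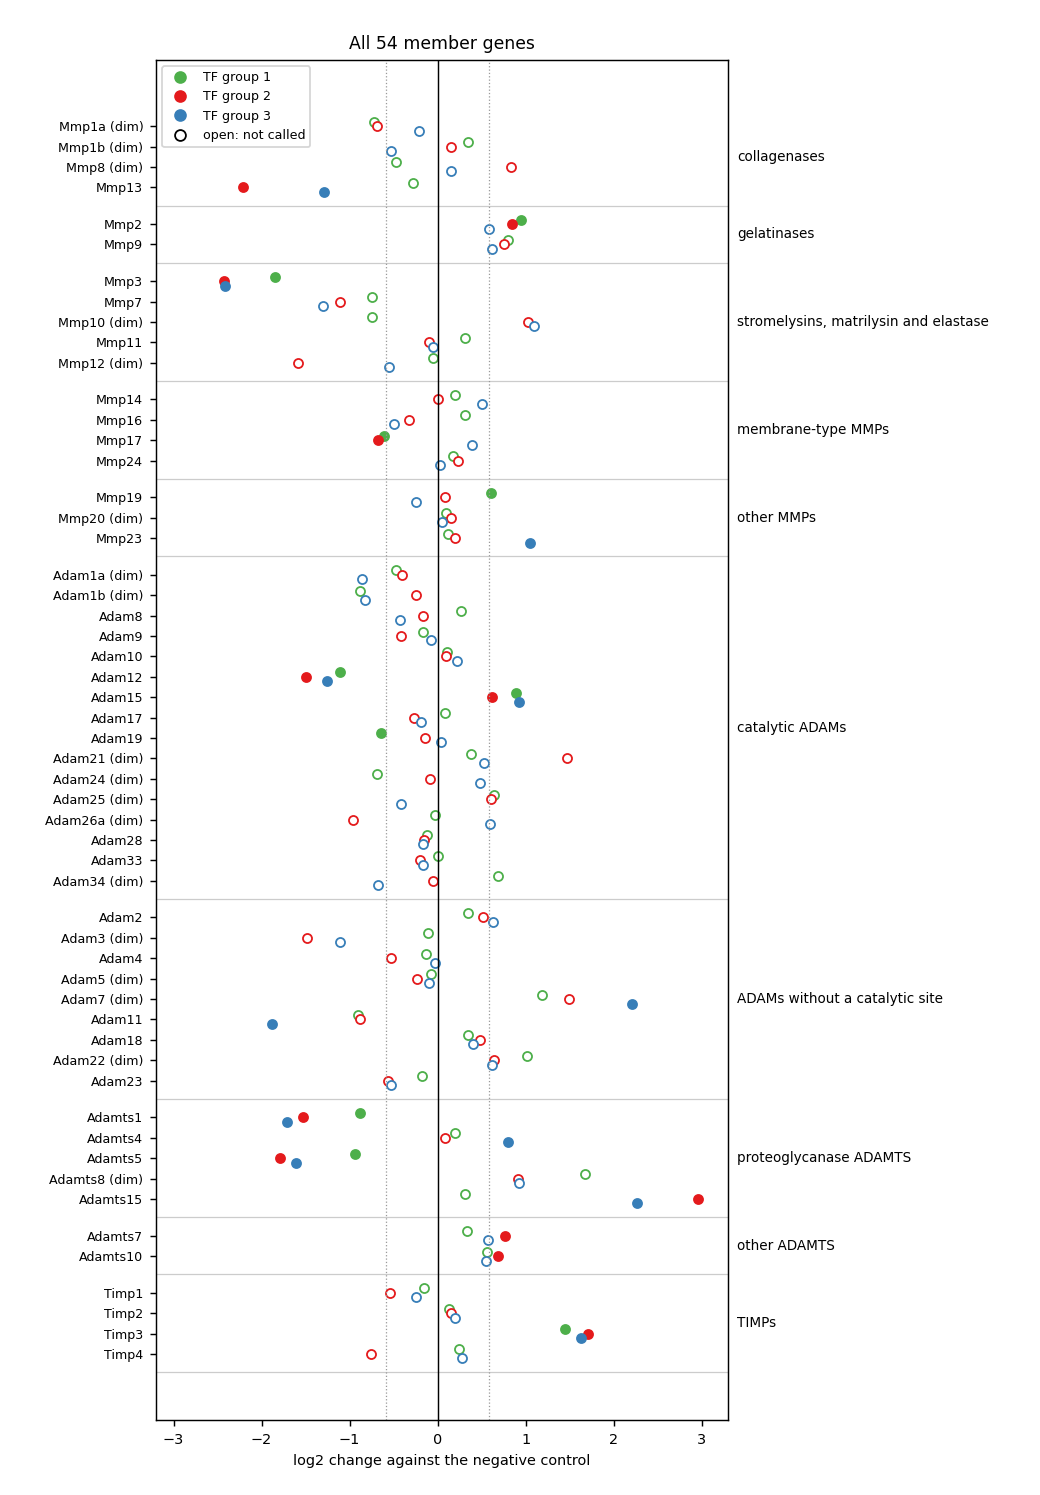
Log2 change against the negative control for each of the 54 genes in TF groups 1, 2 and 3, ordered by family. Filled points were called, open points were not, dotted lines mark a 1.5-fold change, and genes with a mean log2 signal below 5 carry the word dim. The filled points lie on both sides of 0, from -2.43 for Mmp3 to 2.96 for Adamts15.

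Among the inhibitors, Timp3 was the member that rose. Timp3 stays bound to the matrix and inhibits, besides MMPs, the sheddase ADAM17 and the aggrecanases ADAMTS4 and ADAMTS5. Its log2 signal was 11.23, 11.09 and 11.17 on the control arrays, 12.72, 12.52 and 12.59 in TF group 1, 12.83, 12.88 and 12.91 in TF group 2 and, for TF group 3, 12.82, 12.76 and 12.81. Every TF array was above every control array, and the spread within each group was small beside the step between them. Timp3 was 2.73-, 3.27- and 3.1-fold higher (log2 changes 1.45, 1.71 and 1.63, SE 0.07, adjusted p = 3.46e-07, 9.72e-08 and 1.54e-07). All 4 of its probe sets were called higher in all 3 groups, with log2 changes between 1.22 and 2.76. With spike scaling the changes were 0.55, 0.97 and 0.84, and the first was no longer called. TF groups did not differ by call, although TF group 2 was 0.26 above TF group 1 (95% interval 0.11 to 0.41, adjusted p = 0.0456, under the fold threshold).

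The other TIMPs were not called in any comparison on the deposited scale with all 12 arrays. Timp1, a secreted inhibitor made by many activated fibroblasts, averaged 13.06 ± 0.10 (SD) in the control and 12.90 ± 0.08, 12.52 ± 0.06 and 12.82 ± 0.00 in TF groups 1, 2 and 3. The 3 arrays of TF group 2 lay below all others, at 12.47 to 12.59, a log2 change of -0.54 (95% interval -0.69 to -0.38, adjusted p = 0.000173) that stayed under the fold threshold. Without replicate 1 of the negative control that change was -0.59 and was called, and with spike scaling Timp1 was called lower in all 3 groups (-1.06, -1.27 and -1.04). Timp2, which together with Mmp14 takes part in the activation of Mmp2, had log2 changes of 0.13, 0.15 and 0.20 (SE 0.06), and spike scaling turned these to -0.77, -0.59 and -0.59. Of its 5 other probe sets, a pair was called higher in TF group 1 alone. Timp4 had log2 changes of 0.25, -0.76 and 0.28 with an SE of 0.35. Leaving out replicate 1 of the negative control gave a called change of 0.71 in TF group 3 (adjusted p = 0.0486), and leaving out replicate 2 gave -1.10 in TF group 2 (adjusted p = 0.0264). Without replicate 1 of the negative control, TF group 2 was also called lower relative to TF group 1 (adjusted p = 0.0298) and TF group 3 higher relative to TF group 2 (1.04, adjusted p = 0.0228). With spike scaling Timp4 was -0.65 in TF group 1 and was called lower in TF group 2 (-1.50).

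The gelatinases cut denatured collagen and collagen of basement membranes. Mmp2, made constitutively by fibroblasts, read 10.65, 10.78 and 10.77 on the control arrays, 11.77, 11.60 and 11.67 in TF group 1, 11.56, 11.59 and 11.58 in TF group 2 and, for TF group 3, 11.28, 11.35 and 11.32. All TF arrays were above all control arrays, and those of TF group 3 lay below those of the other TF groups. Mmp2 rose 1.92- and 1.8-fold in TF groups 1 and 2 (log2 changes 0.94 and 0.84, SE 0.06, adjusted p = 2.61e-06 and 4.26e-06). In TF group 3 the change was 0.58 (95% interval 0.44 to 0.72, adjusted p = 5.36e-05), just under the fold threshold, while its second probe set, at 0.59, passed it. Without replicate 2 or 3 of the negative control, or without replicate 1 of TF group 3, the first probe set passed too (0.60 in each). With spike scaling the called changes were 0.04 and 0.11 and were not called. Mmp9, the inducible gelatinase, had log2 changes of 0.81, 0.75 and 0.62 with an SE of 0.40 and was not called.

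Stromelysin 1 and collagenase 3 were lower. Mmp3, stromelysin 1, cuts proteoglycans and fibronectin and activates the precursors of other MMPs. Its signal was 8.81, 8.71 and 8.87 on the control arrays, 7.15, 6.68 and 7.03 in TF group 1, 6.19, 6.86 and 6.05 in TF group 2 and, for TF group 3, 6.05, 7.00 and 6.09. No TF array reached the control range, and the TF groups overlapped with each other. Mmp3 was 3.59-, 5.39- and 5.35-fold lower (log2 changes -1.84, -2.43 and -2.42, SE 0.28, adjusted p = 0.000592, 9.24e-05 and 0.000102). Without replicate 2 of TF group 3, Mmp3 was also called lower in TF group 3 relative to TF group 1 (-0.88, adjusted p = 0.0491), where all 12 arrays gave -0.57.

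Mmp13, collagenase 3, is the main collagenase of rodent connective tissue. It read 6.12, 6.31 and 5.97 on the control arrays, 5.94, 5.66 and 5.95 in TF group 1, 3.48, 4.36 and 3.93 in TF group 2 and, for TF group 3, 4.26, 5.18 and 5.07. The 3 arrays of TF group 1 lay just below the control arrays, and those of TF groups 2 and 3 lay at or near the dim range. In TF groups 2 and 3 Mmp13 was at least 2.19-fold lower in each (log2 changes -2.21 and -1.29, SE 0.27, adjusted p = 0.000137 and 0.00401). The change in TF group 1 was -0.28 (95% interval -0.90 to 0.33) and did not pass. Mmp13 was at least 1.8-fold lower in TF group 2 relative to TF group 1 (-1.93, adjusted p = 0.00299) and likewise in TF group 3 relative to TF group 1 (-1.01, adjusted p = 0.0393). The latter call was lost without any of the 3 control arrays, without any of the 3 arrays of TF group 1, without replicate 3 of TF group 2, or when replicate 1 or 3 of TF group 3 was left out, at values between -0.72 and -1.13. Leaving out replicate 1 of TF group 3 also gave a called difference between TF groups 3 and 2 (1.20).

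Mmp3 and Mmp13 lie in a cluster of MMP genes on mouse chromosome 9, where Mmp13, Mmp12, Mmp1b, Mmp3, Mmp1a, Mmp10 and Mmp8 follow each other with 0 other coding genes between neighbours. The start regions of these genes are shown because the pair that fell share a motif there with most of their neighbours. The windows are from RefSeq (GRCm38.p6) and run from 250 bases before to 50 bases after the gene start, and capitals mark the letters TGANTCA, the binding motif of AP-1, which is a dimer of Fos and Jun family proteins. The motif reads the same on both strands. The whole window is given for the pair, Mmp3 at chr9:7445572-7445871 (plus strand) and Mmp13 at chr9:7272264-7272563 (plus strand).
Mmp3: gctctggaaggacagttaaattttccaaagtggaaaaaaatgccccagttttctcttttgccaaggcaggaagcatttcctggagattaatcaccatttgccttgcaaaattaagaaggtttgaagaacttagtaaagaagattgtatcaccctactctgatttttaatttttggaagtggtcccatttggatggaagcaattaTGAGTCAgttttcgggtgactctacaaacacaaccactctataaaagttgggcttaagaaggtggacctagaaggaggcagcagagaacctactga
Mmp13: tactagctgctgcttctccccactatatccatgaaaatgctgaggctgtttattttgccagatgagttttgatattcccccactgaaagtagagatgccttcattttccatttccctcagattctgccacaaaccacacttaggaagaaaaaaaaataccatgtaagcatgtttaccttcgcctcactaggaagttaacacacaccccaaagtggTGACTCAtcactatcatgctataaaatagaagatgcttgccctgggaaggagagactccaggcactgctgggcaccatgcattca

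For the neighbours, 10 bases on each side of the motif are given, at chr9:7347320-7347346 for Mmp12, chr9:7388103-7388129 (minus strand) for Mmp1b, chr9:7464058-7464084 for Mmp1a, chr9:7502269-7502295 for Mmp10, chr9:7628126-7628152 for Mmp20 and chr9:7692017-7692043 for Mmp7.
Mmp12: acatcaacagTGAGTCAgatagaggat
Mmp1b: ttacaaagccTGAGTCAtatagcctct
Mmp1a: ttgtcaaccaTGAGTCAcatagcctct
Mmp10: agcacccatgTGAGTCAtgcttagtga
Mmp20: atttgagacaTGAATCAtcacttacag
Mmp7: agtgtgcaaaTGAGTCAcctatttcca
Counted from the gene start, the first base of the motif stood at position -35 in Mmp13, -46 in Mmp3, -44 in Mmp12, -73 in Mmp1a, -93 in Mmp1b, -63 in Mmp10 and Mmp7, and -95 in Mmp20.

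Of the 54 genes, 30 had a start window in the table, with 35 windows in all. TGANTCA was present in 11 of these 35 windows (31.4%), against 7.81% of 32851 windows of the same length from all genes. The 11 were those above and the ones of Adam19, Adam1b and Adam25. Adamts1, which was lower in every TF group, had a window without these letters. Adam12 and Adamts5, also lower in every TF group, had no window, so the motif cannot be read as shared by the genes that fell. The share of the 35 thus rests mostly on neighbouring genes of a single stretch of chromosome 9, and it was not tested. Motifs of some of the delivered factors were searched too, and none was sought for TBX5 or Mesp1. The letters AGATAA of a GATA site (on either strand) were in the windows of Mmp24 and Mmp7 (5.71%, against 11.2% of all windows), the MEF2 motif was in that of Mmp10 (2.86%, against 3.19%), and the CArG box, the motif of SRF, was in 0 of 35 (1.63% of all). A match describes the letters and not a bound site. Of the genes of the cluster that carry the AP-1 letters, Mmp12, Mmp1b, Mmp1a, Mmp10 and Mmp20 had mean log2 signals below 5. Their direction could not be read from these arrays. Mmp7, at 5.30, was not called in any comparison.

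**Figure D2:**
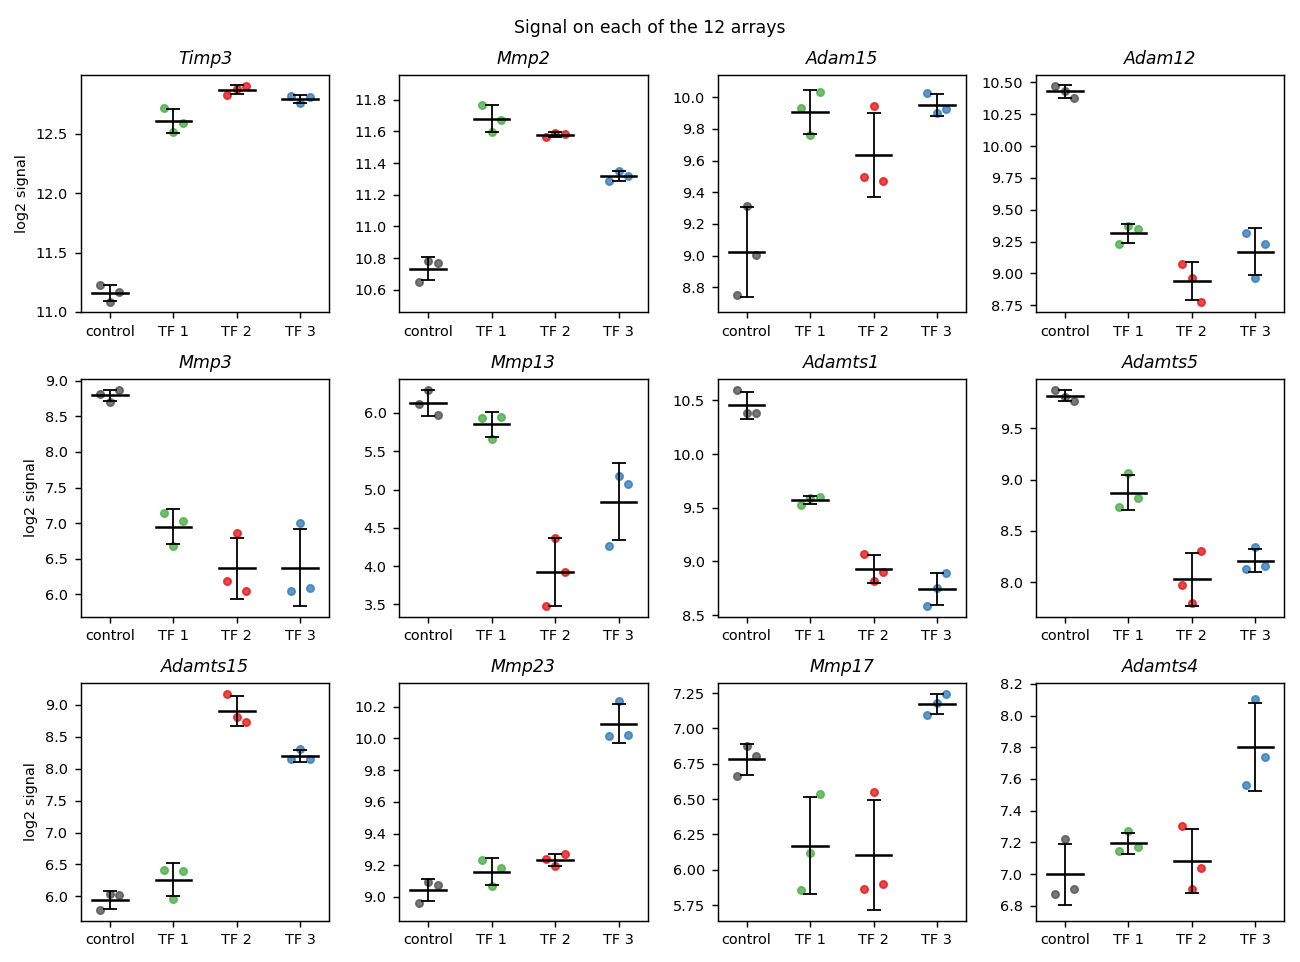
Log2 signal on each of the 12 arrays for Timp3, Mmp2, Adam15, Adam12, Mmp3, Mmp13, Adamts1, Adamts5, Adamts15, Mmp23, Mmp17 and Adamts4, with arrays as points and bars for the mean and SD of the 3 arrays of a group. Timp3 steps up from 11.16 in the control to between 12.61 and 12.87, Mmp3 steps down from 8.80 to between 6.37 and 6.95, and Adamts15 is raised in TF groups 2 and 3.

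The membrane-type MMPs stay on the cell surface. Mmp14, the main activator of Mmp2, was not called at its brightest probe set, with log2 changes of 0.20, 0.00 and 0.51 (SE 0.05). The change in TF group 3 had a 95% interval of 0.38 to 0.63 (adjusted p = 5.8e-05), under the fold threshold, and its dimmer probe set was called higher there (0.65). Mmp17, held in the membrane by a lipid anchor, read 6.66, 6.88 and 6.80 on the control arrays, 5.86, 6.12 and 6.54 in TF group 1, 5.86, 6.55 and 5.90 in TF group 2 and, for TF group 3, 7.10, 7.18 and 7.24. TF group 3 lay above the control arrays, and the others lay below them. Mmp17 was 1.53- and 1.6-fold lower in TF groups 1 and 2 relative to the control (-0.61 and -0.68, SE 0.21, adjusted p = 0.0423 and 0.0266), and 2-fold higher in TF group 3 relative to TF group 1 and 2.1-fold higher relative to TF group 2 (1.00 and 1.07, adjusted p = 0.012 and 0.0131). In TF group 3 its change against the control was 0.39 (95% interval -0.08 to 0.86) and was not called. The call against the control in TF group 1 was lost without any control array, without replicate 1 or 2 of TF group 1, or without any array of TF group 3 (-0.45 to -0.67), and that in TF group 2 without replicate 2 or 3 of the control and without replicate 1 or 3 of TF group 2 (-0.56 to -0.67). The difference between TF groups 3 and 2 was 0.95 and 0.97 without replicates 1 and 3 of TF group 2 and was then not called.

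Mmp16, another membrane-type MMP, read 8.14, 8.20 and 8.03 on the control arrays, 8.52, 8.34 and 8.45 in TF group 1, 8.02, 7.73 and 7.65 in TF group 2 and, for TF group 3, 7.60, 7.76 and 7.53. It was above the control in TF group 1 and below it in the other TF groups, by 0.31, -0.32 and -0.49, none past the fold threshold. Between TF groups it was 1.55-fold lower in TF group 2 and 1.75-fold lower in TF group 3 relative to TF group 1 (-0.64 and -0.81, SE 0.11, adjusted p = 0.00777 and 0.00121). The former call was lost without replicate 3 of TF group 2 (-0.56), and the second probe set of Mmp16 was not called in either comparison (-0.11 in TF group 2 and -0.30 in TF group 3 against TF group 1). Mmp24 was not called, with log2 changes from 0.02 to 0.23.

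Mmp23 and Mmp19 both differed by call between TF groups 3 and 1. Mmp23, an MMP of unusual domain structure, read 8.96, 9.09 and 9.07 on the control arrays, 9.23, 9.07 and 9.18 in TF group 1, 9.24, 9.19 and 9.27 in TF group 2 and, for TF group 3, 10.02, 10.24 and 10.02. The arrays of TF group 3 stood apart from the other 9. Mmp23 was 2.07-fold higher there relative to the control (1.05, SE 0.08, adjusted p = 4.9e-06), 1.81-fold higher relative to TF group 2 (adjusted p = 0.000198) and 1.91-fold higher relative to TF group 1 (adjusted p = 8.52e-05). With spike scaling the changes against the control were -0.78 in TF group 1 and 0.26 in TF group 3, the latter not called. The difference of 1.04 between TF groups 3 and 1 was still called, and that of 0.80 between TF groups 3 and 2 was not. The second probe set of Mmp23 was called higher in TF group 3 relative to the control (0.65) and relative to TF group 1 (0.73), but not relative to TF group 2 (0.49).

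Mmp19, a secreted MMP that cuts basement membrane proteins, read 6.55, 6.53 and 6.90 on the control arrays, 7.20, 7.28 and 7.33 in TF group 1, 6.73, 6.69 and 6.81 in TF group 2 and, for TF group 3, 6.20, 6.61 and 6.41. TF group 1 was above all other arrays. Mmp19 was 1.53-fold higher in TF group 1 relative to the control (0.61, SE 0.12, adjusted p = 0.00318), a call that was lost without replicate 1 or 2 of the control or replicate 3 of TF group 1 (0.56, 0.54 and 0.58) and that spike scaling turned to -0.29. Median centring and quantile normalization removed this call too (0.48 and 0.45). So did array weights, an offset of 50 before log2 and the mean of its probe sets (0.57, 0.43 and 0.51). Mmp19 was 1.82-fold lower in TF group 3 relative to TF group 1 (-0.86, adjusted p = 0.00175), a call that spike scaling removed (-0.75).

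The ADAMs with a catalytic site numbered 16, of which Adam12, Adam15 and Adam19 were called. Adam12, a sheddase of growth factors of the EGF family that is known from fusing myoblasts, read 10.47, 10.44 and 10.38 on the control arrays, 9.23, 9.37 and 9.35 in TF group 1, 9.08, 8.96 and 8.78 in TF group 2 and, for TF group 3, 9.32, 8.96 and 9.23. All TF arrays were at least 1 below the control arrays. Adam12 was 2.16-, 2.81- and 2.39-fold lower (-1.11, -1.49 and -1.26, SE 0.11, adjusted p = 2.73e-05, 3.51e-06 and 1.14e-05). Its second probe set was lower by call in all 3 groups as well (-1.51, -2.01 and -1.43).

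Adam15, a membrane-anchored protease that also binds integrins, moved the other way. It read 8.75, 9.31 and 9.00 on the control arrays, 9.93, 9.76 and 10.03 in TF group 1, 9.50, 9.94 and 9.47 in TF group 2 and, for TF group 3, 10.03, 9.90 and 9.92. The control arrays spread over more than those of TF groups 1 and 3, yet no TF array fell within their range. Adam15 was 1.85-, 1.53- and 1.9-fold higher (0.89, 0.61 and 0.93, SE 0.16, adjusted p = 0.00191, 0.0139 and 0.00145). The call in TF group 2 was lost without replicate 1 of the control (0.48) and without replicate 2 of TF group 2 (0.46), and spike scaling gave -0.01, -0.12 and 0.13. Median centring, quantile normalization and an offset of 50 before log2 also removed the call in TF group 2 (0.51, 0.58 and 0.57). Of the 3 other probe sets of Adam15, a pair was called higher in all 3 groups, the dimmest by 2.88, 2.74 and 3.00, while the remaining probe set was not called (0.50, 0.41 and 0.52).

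Adam19, which is needed for septa and valves in the mouse heart, read 10.69, 10.66 and 10.80 on the control arrays, 10.07, 10.08 and 10.06 in TF group 1, 10.55, 10.60 and 10.55 in TF group 2 and, for TF group 3, 10.74, 10.76 and 10.76. Its level was low in TF group 1 and back in the control range in TF group 3. Adam19 was 1.57-fold lower in TF group 1 relative to the control (-0.65, SE 0.05, adjusted p = 1.12e-05) and 1.61-fold higher in TF group 3 relative to TF group 1 (0.69, adjusted p = 5.97e-05). Against the control it changed by -0.15 in TF group 2 and 0.04 in TF group 3, and spike scaling made the latter -0.75. The second probe set had the same order but was not called (-0.41 in TF group 1).

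The bright sheddases were not called at their brightest probe sets. Adam10 and Adam17 release the ectodomains of Notch receptors and of TNF and EGF family ligands. Adam17, given at the brightest of its 3 probe sets alone, had log2 changes of 0.08, -0.27 and -0.18 (SE 0.05). The brightest probe set of Adam10 had 0.10, 0.09 and 0.22. Its 2 dimmer probe sets had larger positive changes, the first being called higher in TF groups 1 and 3 (0.73 and 0.88) and the second in TF groups 2 and 3 (1.03 in each), so the size of the change in Adam10 depends on the probe set. Adam9 was -0.16, -0.41 and -0.08 (SE 0.05), and in TF group 2 its adjusted p of 0.000104 came with a change under the fold threshold.

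Of 9 ADAMs without a catalytic site, Adam11 and Adam7 were called, both in TF group 3. Adam11, known from the nervous system, read 6.13, 6.23 and 5.70 on the control arrays, 4.69, 6.02 and 4.64 in TF group 1, 5.45, 4.87 and 5.12 in TF group 2 and, for TF group 3, 3.64, 3.60 and 5.19. The replicates of TF groups 1 and 3 were spread over more than 1. Adam11 was at least 2.03-fold lower in TF group 3 (-1.88, SE 0.48, adjusted p = 0.0117), and without replicate 2 of TF group 1 it was called in TF group 1 too (-1.36). Adam7, an ADAM of the epididymis, had group means between 2.07 and 4.28, dim in all 4 groups, so no fold is given. Its change in TF group 3 was 2.21 (SE 0.63, adjusted p = 0.019), and this call was lost without replicate 2 or 3 of the control and without replicate 1 or 2 of TF group 3 (1.54, 2.19, 2.12 and 2.07). Without replicate 1 of the control, Adam7 was called in TF groups 1 and 2 too (1.89 and 2.20).

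The ADAMTS genes held the largest rise among the 54 and a pair that fell. Adamts1, a versican-cutting enzyme active in the trabeculae of the growing ventricle, read 10.60, 10.38 and 10.38 on the control arrays, 9.53, 9.59 and 9.60 in TF group 1, 9.07, 8.81 and 8.90 in TF group 2 and, for TF group 3, 8.59, 8.75 and 8.89. TF group 1 lay between the control and the other TF groups, with no overlap. Adamts1 was 1.85-, 2.88- and 3.28-fold lower relative to the control (-0.89, -1.53 and -1.71, SE 0.10, adjusted p = 8.95e-05, 2.22e-06 and 1.19e-06). It was 1.56-fold lower in TF group 2 and 1.77-fold lower in TF group 3 relative to TF group 1 (-0.64 and -0.83, adjusted p = 0.00521 and 0.000732), the former call being lost without replicate 2 of TF group 2 (-0.58). Spike scaling kept the calls against the control and removed those between TF groups (-0.48 and -0.72).

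Adamts5, an aggrecanase, is the neighbour of Adamts1 on chromosome 16, with 0 coding genes between them. It read 9.87, 9.81 and 9.77 on the control arrays, 8.73, 9.07 and 8.82 in TF group 1, 7.98, 7.80 and 8.31 in TF group 2 and, for TF group 3, 8.13, 8.34 and 8.16. As for Adamts1, TF group 1 lay between the control and the others. Adamts5 was 1.92-, 3.45- and 3.04-fold lower (-0.94, -1.79 and -1.60, SE 0.13, adjusted p = 0.000358, 5e-06 and 1.09e-05). TF groups 2 and 3 were 1.79- and 1.58-fold lower than TF group 1 (-0.84 and -0.66, adjusted p = 0.0054 and 0.0106), the latter call being lost without replicate 2 of TF group 1 (-0.56), and spike scaling removed both (-0.68 and -0.56). The second probe set of Adamts5 was lower by call against the control in all 3 groups (-1.01, -1.36 and -1.53) and was not called between TF groups.

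Adamts15, another enzyme that cuts versican and aggrecan, was raised where the set held Mesp1 and SMARCD3. It read 5.79, 6.03 and 6.02 on the control arrays, 6.41, 5.96 and 6.40 in TF group 1, 9.18, 8.82 and 8.73 in TF group 2 and, for TF group 3, 8.15, 8.31 and 8.15. TF group 1 overlapped the control, and TF groups 2 and 3 stood far above both. Adamts15 rose 7.79- and 4.79-fold in TF groups 2 and 3 relative to the control (2.96 and 2.26, SE 0.15, adjusted p = 4.96e-07 and 2.89e-06), and in TF group 1 its change was 0.31 (95% interval -0.03 to 0.66). TF group 2 was 6.27-fold and TF group 3 3.86-fold above TF group 1 (2.65 and 1.95, adjusted p = 1.63e-05 and 6.41e-05), calls that all alternatives at this fold threshold kept. TF group 3 was 1.63-fold below TF group 2 (-0.70, adjusted p = 0.023), and this call was lost without any 1 of replicates 1 and 2 of TF group 2 (-0.57 and -0.75) and of replicates 1 and 3 of TF group 3 (-0.68 and -0.67).

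Adamts4, an aggrecanase, read 6.87, 7.22 and 6.90 on the control arrays, 7.14, 7.27 and 7.17 in TF group 1, 7.30, 6.90 and 7.04 in TF group 2 and, for TF group 3, 7.56, 8.10 and 7.74. The arrays of TF group 3 were above the other 9. Adamts4 was 1.74-fold higher there relative to the control (0.80, SE 0.16, adjusted p = 0.00263), a call that spike scaling removed (0.01). It was 1.52-fold above TF group 1 and 1.65-fold above TF group 2 (0.61 and 0.72, adjusted p = 0.0329 and 0.0227). The call against TF group 1 was lost without any array of TF group 1, without replicate 3 of TF group 2, or when replicate 2 or 3 of TF group 3 was left out (0.46 to 0.65), and that against TF group 2 without replicate 2 or 3 of TF group 2, as well as replicate 2 or 3 of TF group 3 (0.57 to 0.75). Its second probe set was called higher in TF groups 1 and 3 relative to the control (0.65 and 0.97) and was not called between TF groups.

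Adamts7, which cuts cartilage oligomeric matrix protein, rose 1.7-fold in TF group 2 (0.76, SE 0.16, adjusted p = 0.00381), with 0.34 and 0.58 in TF groups 1 and 3. It was called in TF group 3 too without replicate 1 of the control (0.69) or without replicate 1 or 2 of TF group 3 (0.64 in each). Adamts10, which associates with fibrillin microfibrils, rose 1.61-fold in TF group 2 (0.68, SE 0.16, adjusted p = 0.00625), with 0.56 in each of TF groups 1 and 3. The call of Adamts10 was lost without replicate 2 of the control (0.56), and without replicate 3 of the control it was called in TF groups 1 and 3 too (0.68 in each), as it was in TF group 1 without replicate 1 or 2 of that group (0.61 and 0.63) and in TF group 3 without replicate 2 of that group (0.69). Spike scaling gave 0.03 for Adamts7 and -0.05 for Adamts10 in TF group 2. Median centring and quantile normalization also removed the call of Adamts10 (0.58 in each). An offset of 50 before log2 removed the calls of Adamts7 (0.48) and Adamts10 (0.56). A call in TF group 2 alone does not separate it from its neighbours, and for neither gene was a difference between TF groups called. Adamts8 was dim and was not called.

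**Figure D3:**
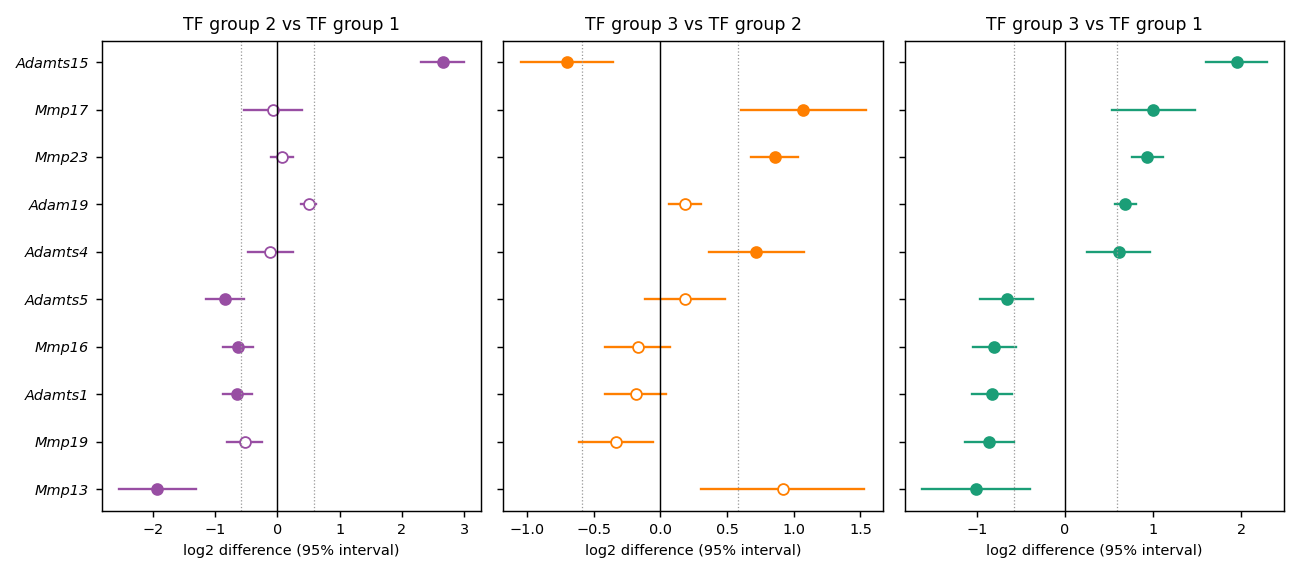
Log2 difference between TF groups with its 95% interval for the 10 genes that were called in at least 1 of the 3 comparisons TF group 2 vs TF group 1, TF group 3 vs TF group 2 and TF group 3 vs TF group 1. Adamts15 spans from -0.70 to 2.65, Mmp23 and Mmp17 are raised in TF group 3, and Adamts1 and Adamts5 are below 0 against TF group 1.

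The TF groups were also compared with each other. From TF group 1 to TF group 2, 1 of the 54 genes was higher and 4 were lower, beside 2.08% and 1.78% of all genes (3.87% in either direction). From TF group 2 to TF group 3, 3 were higher and 1 lower (2.32% and 1.7% of all genes, 4.03% together). From TF group 1 to TF group 3, 5 were higher and 5 lower (3.26% and 3.05% of all genes, 6.31% together). On the deposited scale, the called shares of the 54 in either direction were thus 9.26%, 7.41% and 18.5%. They were above those of all genes in each of these comparisons, and rest on 5, 4 and 10 genes. The higher 5 were Adam19, Adamts15, Adamts4, Mmp17 and Mmp23, and the lower 5 were Adamts1, Adamts5, Mmp13, Mmp16 and Mmp19. With spike scaling, 1 was higher and 1 lower in the first of these comparisons (Adamts15 and Mmp13), 0 and 0 in the second and 2 and 0 in the third (Adamts15 and Mmp23). Of all genes, 1.26% were higher and 0.226% lower in the first, 0.718% and 0.533% in the second, and 2.09% and 0.694% in the third. These comparisons share arrays with each other and with those against the control.

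**Figure D4:**
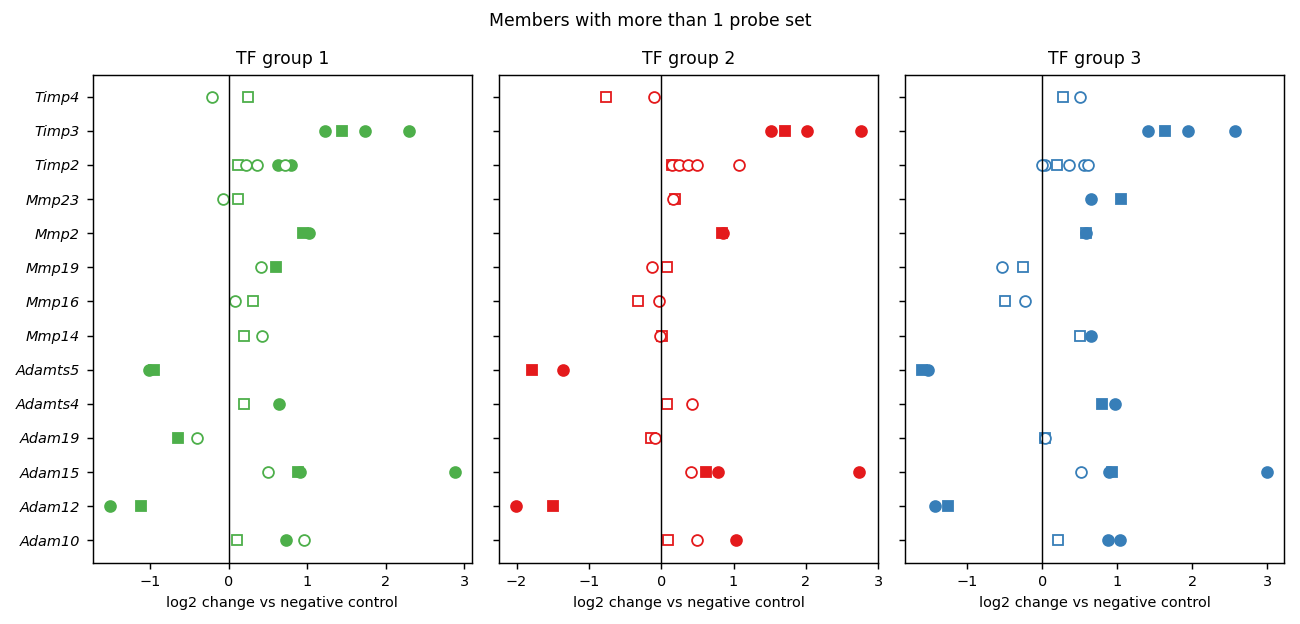
Log2 change against the negative control at every probe set of genes that have more than 1. Shown are those called against the control and some picked from the others, among them Timp2, Adam10, Mmp14 and Mmp16. Further genes that were not called, such as Adam17, are left out. Squares stand for the probe set that represents the gene, circles for the others and filled marks for calls. The 4 probe sets of Timp3 lie above 1 in all 3 groups, those of Adam12 and Adamts5 lie below 0, and those of Adam10 are all above 0 but differ in size.

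Of the 54 genes, 35 were not called in any of the 6 comparisons. Bright ones with a mean of at least 9 numbered 6, Adam9, Adam10, Adam17, Mmp14, Timp1 and Timp2, described above. Another 12, Adam2, Adam4, Adam8, Adam18, Adam23, Adam28, Adam33, Mmp7, Mmp9, Mmp11, Mmp24 and Timp4, had means between 5 and 9. Over these 18 the log2 changes against the control ran from -1.30 for Mmp7 to 0.81 for Mmp9. The other 17 were dim: Adam1a, Adam1b, Adam3, Adam5, Adam21, Adam22, Adam24, Adam25, Adam26a, Adam34, Adamts8, Mmp1a, Mmp1b, Mmp8, Mmp10, Mmp12 and Mmp20. Their SE lay between 0.33 and 1.13, against a median SE of 0.16 for genes of the 54 with a mean of at least 5, which sets how large a change had to be to pass. Several of these ADAMs are known from the testis. Among the 36 genes with a mean of at least 5, 27.8%, 33.3% and 30.6% were called in TF groups 1, 2 and 3, against 28.4%, 29.9% and 28.8% of all genes that bright. Among the 18 dim genes, 0, 0 and 1 were called, against 6.9%, 7.45% and 7.61% of all dim genes.

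Other genes of the system changed in either direction. Among 21 inhibitors outside the TIMP family, 5, 3 and 3 rose in TF groups 1, 2 and 3 and 2, 3 and 5 fell. Of all genes, 15.1%, 15.3% and 14.7% were called higher in these groups and 8.93%, 10.1% and 9.84% lower. These shares stand beside the counts of this and the following lists, and no list was tested against them. Reck, a membrane-anchored inhibitor of MMPs, read 8.82, 8.93 and 8.90 on the control arrays, 10.55, 10.62 and 10.59 in TF group 1, 10.23, 10.16 and 10.11 in TF group 2 and, for TF group 3, 9.86, 9.93 and 9.91. The groups did not overlap, and Reck was highest in TF group 1. It was 3.25-, 2.44- and 2.02-fold higher (1.70, 1.29 and 1.01, SE 0.06, adjusted p = 7.22e-08, 2.06e-07 and 9.13e-07) and 1.61-fold lower in TF group 3 relative to TF group 1 (adjusted p = 8.38e-05). Spint2, an inhibitor of serine proteases, was 5.78-, 3.08- and 3.03-fold higher. Tfpi2, a matrix-bound inhibitor of plasmin, was 11.7-, 10.3- and 8.16-fold lower (-3.55, -3.36 and -3.03, SE 0.26), and its relative Tfpi was 2.15-, 1.82- and 2.3-fold lower. Sfrp2 rose in TF group 1 and fell in the others (1.78, -0.64 and -1.40), the call in TF group 2 being lost without any array of the negative control or of TF group 2, or when replicate 2 of TF group 1 or replicate 3 of TF group 3 was left out (-0.56 to -0.69). Cst6 was higher in TF groups 2 and 3 (1.72 and 0.76) but not called with spike scaling in TF group 3 (-0.03), and Serpinb2 was lower in TF group 3 (-0.91).

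Activators and receptors of the proteases numbered 36, of which 5, 6 and 5 rose and 6, 5 and 6 fell. Plaur, the receptor of urokinase, was 3.77-, 3.71- and 2.58-fold lower (-1.91, -1.89 and -1.37, SE 0.09). Urokinase itself, Plau, named after its values were seen, was lower in TF groups 1 and 2 (-0.84 and -1.33) and not called in TF group 3 (-0.46). Pcsk5, a convertase that removes prodomains, exceeded the control at least 4.39- and 5.21-fold in TF groups 2 and 3 and changed by 0.21 in TF group 1, where spike scaling gave -0.69. The convertase Pcsk6 was higher in all 3 groups (1.02, 1.23 and 0.99). Tll1, a procollagen C-proteinase, was 6.44-, 7.74- and 2.31-fold lower, and it was 3.35-fold higher in TF group 3 relative to TF group 2 (adjusted p = 3.32e-05). Ctsb and Htra1, a lysosomal and a secreted protease, were higher in all 3 groups (1.03, 1.05 and 0.86 for Ctsb, and 0.93, 1.22 and 1.16 for Htra1). Ctss was at least 1.79-fold lower in each TF group, its call in TF group 3 being lost without any control array, replicate 2 of TF group 1, replicate 3 of TF group 2 or replicate 2 or 3 of TF group 3 (-1.74 to -2.54), and Lrp2 was dim in every group.

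Of 43 substrates, 9, 5 and 6 were higher and 3, 5 and 4 lower. The adhesion proteins Icam1 (2.49, 2.60 and 1.85) and Jam2 (2.34, 2.39 and 1.98) were higher in all 3 groups. Kitl, a membrane ligand that is shed, was lower in TF groups 2 and 3 (-1.37 and -2.26). Of the substrates of the proteoglycanases, Acan, aggrecan, was higher in TF group 1 (1.24) and Vcan, versican, named after its values were seen, was lower there (-0.81), and neither was called in TF groups 2 and 3. The proteoglycan Dcn was higher in TF groups 1 and 2 (1.09 and 0.77) and not in TF group 3 (0.02, and -0.77 with spike scaling), and Lum was higher in TF group 1 (1.80) and lower in TF group 3 (-1.87). Comp and Col2a1 were lower in TF group 2 (-1.18 and -1.89), and the call of Comp was lost without replicate 1 or 3 of the negative control or of TF group 2 (-0.99 to -1.25).

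A list of AP-1, ETS and NF-kB regulators, which also held the secreted factors Il6, Il1b and Tgfb2, numbered 26. Of these, 4, 3 and 4 were higher and 5 lower in each TF group. Fosl1, an AP-1 subunit, read 10.26, 10.33 and 10.31 on the control arrays and between 8.40 and 8.79 on the 9 TF arrays. It was 3.52-, 3.22- and 3.45-fold lower (-1.82, -1.69 and -1.78, SE 0.09, adjusted p = 5.67e-07, 6e-07 and 5.32e-07), as was its partner Jun by a smaller step (-0.66, -0.59 and -0.60), the latter named after its values were seen. Fos moved the other way, with 0.57, 1.56 and 0.87, called in TF groups 2 and 3. Ets1 was lower in all 3 groups (-1.13, -0.89 and -0.98), as were Etv4 (-1.46, -0.98 and -0.91) and the cytokine Il6 (-1.12, -1.47 and -0.86). Atf3 (1.17, 1.14 and 0.71, with -0.08 in TF group 3 by spike scaling) and Tgfb2 (1.27, 1.09 and 1.59) were higher in all 3, and Il1b in TF group 1 (1.26), a call that was lost without replicate 1 or 3 of the negative control or any array of TF group 1 (adjusted p of limma from 0.0513 to 0.0815).

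**Figure D5:**
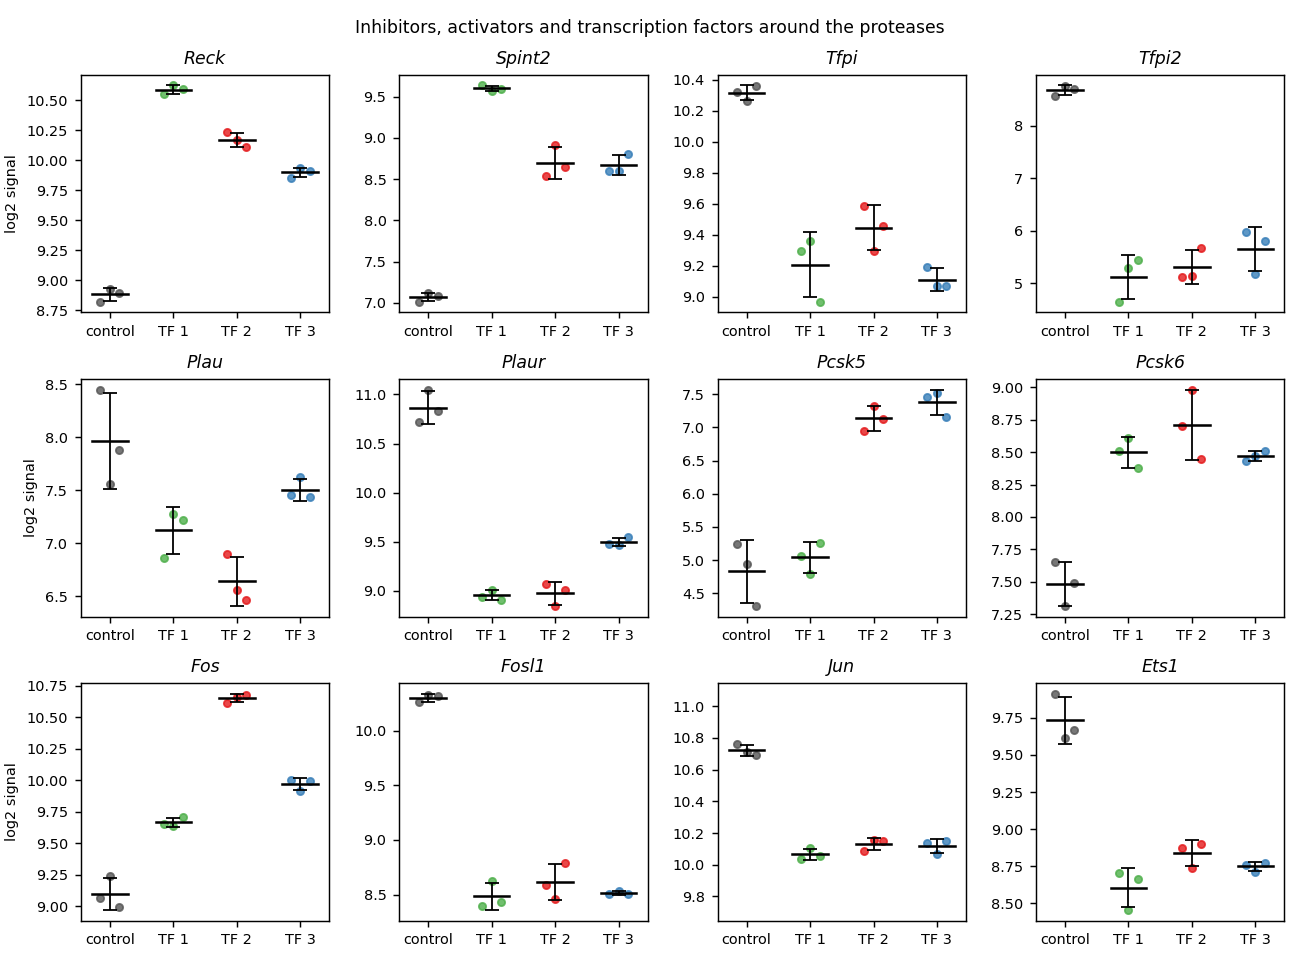
Log2 signal on each of the 12 arrays for Reck, Spint2, Tfpi, Tfpi2, Plau, Plaur, Pcsk5, Pcsk6, Fos, Fosl1, Jun and Ets1, with arrays as points and bars for the mean and SD of a group. Reck and Spint2 step up from 8.88 and 7.07 in the control, Tfpi2 steps down from 8.67, and Fos and Fosl1 move apart.

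Markers of other cells that a fibroblast culture could hold were counted beside these results. The shares of all genes given with the inhibitors stand beside these counts too. Of 14 macrophage markers, 0 were higher and 1 was lower in each TF group, and their summed signal was 642 to 717 on control arrays, 499 to 549 in TF group 1, 656 to 689 in TF group 2 and 625 to 664 in TF group 3. Of 9 epithelial markers, 2, 1 and 2 were higher and 1, 1 and 0 lower, and the sum was 652 to 755 on control arrays and 970 to 1016, 949 to 1081 and 843 to 933 in TF groups 1, 2 and 3. Krt18 was higher in all 3 groups (2.16, 2.34 and 1.60), Krt19 was lower in TF groups 1 and 2 (-1.16 and -1.45), and Cdh1 (0.83 in TF group 3) and Epcam (0.88 in TF group 1, -0.02 with spike scaling) were each called higher in 1 group. The call of Cdh1 was lost in 8 of the 12 fits that left out 1 array (0.68 to 0.90). Of 7 osteochondral markers, 3, 2 and 2 were higher and 0, 1 and 0 lower, with sums of 712 to 783, 1117 to 1331, 808 to 946 and 746 to 817. Col10a1 (2.69, 2.41 and 1.51) and Sox9 (1.15, 1.24 and 1.03) were higher in all 3 groups. Acan was higher in TF group 1 and Col2a1 lower in TF group 2, as given with the substrates. The median log2 change of these 7 markers was 0.63, 0.31 and -0.007. Of 10 endothelial markers, 2, 0 and 1 were higher, with sums of 366 to 464, 452 to 513, 419 to 521 and 398 to 431; these were Tek and Egfl7 in TF group 1 (0.71 and 0.67, but -0.19 and -0.23 with spike scaling) and Esam in TF group 3 (0.82). The call of Tek was lost in 9 of the fits that left out 1 array (0.55 to 0.73), and that of Esam without replicate 1 or 3 of the negative control or replicate 2 of TF group 3 (0.65 to 0.75). Of 12 fibroblast markers, 2, 1 and 0 were higher and 1, 3 and 4 lower. Their sums were 77277.9 to 81125.4 on control arrays, and 88071.9 to 94924.5, 70807 to 73342.1 and 69780.5 to 71697 in TF groups 1, 2 and 3. The higher ones were Dcn in TF groups 1 and 2 and Lum in TF group 1, both given with the substrates. Lum was lower in TF group 3. S100a4 was lower in all 3 groups (-0.60, -0.94 and -1.30), Pdgfrb in TF groups 2 and 3 (-0.67 and -0.59) and Pdgfra in TF groups 2 and 3 (-0.89 and -1.29, with 0.09 in TF group 1 that spike scaling turned to -0.81). Single arrays left out took S100a4 in TF group 1 and Pdgfrb in TF group 3 under the fold threshold (-0.55 to -0.58 and -0.56 to -0.57). Lyz2, a macrophage marker, was lower in TF groups 2 and 3 (-2.03 and -1.50). Its call in TF group 3 was lost without any array of the negative control or of TF group 1, without replicate 2 of TF group 2, or when replicate 1 or 3 of TF group 3 was left out (-1.04 to -1.60). The macrophage gene Tyrobp, dim over all arrays, was called lower in TF group 1, a call that was lost without replicate 1 or 3 of the negative control or replicate 1 or 2 of TF group 1. Between 7 and 8 of the macrophage markers had a mean below 5. The part of these cells in the changes above was not tested.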

How the data were processed

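RNA of 12 MEF cultures was amplified and hybridized to mouse 430A 2.0 expression arrays. The deposited values are 1 linear intensity per probe set and array. RMA and Partek, named with no version in the methods and in the notes of the submitters, give log2 values, whereas the deposited intensities are linear and share a trimmed mean of 500, so how they were scaled is unknown. They were taken to log2, as the tests foresaw for linear values.

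Of 22690 probe sets, 64 controls were set aside. Of the other 22626, 20380 had 1 gene symbol in the platform annotation, 691 several and 1555 none. limma 3.58.1 in R 4.3.3 fitted a mean for each group to the 12 arrays together, with empirical Bayes variances, and p-values were adjusted over all 22626. All 22 genes named in full are the Timp genes and those called, including 1 between TF groups. Of each list of related genes, up to 4 called genes per direction are named. Genes and lists were chosen with earlier results of these data known. The steps were tested on simulated data. Alternatives covered thresholds, variance model, arrays in the fit, a replicate block, scaling, low values, other probe sets and each array left out. 3 replicates per group limit the precision.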

Additional observations from a re-analysis of the deposited data

Results flagged for a closer look

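A pair of controls outside the gene comparisons stood out. The mean of the 24 poly-A spike probe sets stood 0.81 (log2) above that of the negative control on the TF arrays, lying between 6.99 and 7.79 on control arrays and between 8.03 and 8.28 on TF arrays. The mean of the 3 probe sets for 18S ribosomal RNA was 1.19 higher on TF arrays. Both were picked out because they carried a signal outside the comparisons that was above the level of the control samples. Their part in the changes of the protease genes was not tested.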

How the results depend on the processing

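Of the 53 changes of the 54 genes that were called over the 6 comparisons, 34 kept their call under every alternative other than a stricter fold and spike scaling, and 23 under spike scaling as well. At a fold over 2, the genes higher were 1 and 2 in TF groups 1 and 2 against the control, 1 in TF group 3 against TF group 2 and 2 against TF group 1, and the genes lower were 2 in TF group 1, 1 in TF group 2 against TF group 1, 0 in TF group 3 against TF group 2 and 1 against TF group 1. With an unadjusted p, 5 genes were higher in TF group 3 relative to TF group 2. With the 6 arrays of a comparison alone, 2 were lower in TF group 2 relative to TF group 1, and 1 was higher and 0 lower in TF group 3 relative to TF group 2. With an offset of 50 before log2, 3 were higher in TF group 2 than in the control and 3 lower in TF group 3 relative to TF group 1. With the mean of all probe sets of a gene, 3 were higher in TF group 3 relative to TF group 1. Shares of all genes were not counted for these settings, nor for the fits below that left out 1 array or held a replicate block.

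With arrays centred on their median, TF group 2 had 4 genes higher and 8 lower, and with quantile normalization 4 and 7, against 6 and 6 as deposited. Of all genes, 12.7% and 12.8%, 13.6% and 11.1%, and 15.3% and 10.1% were then higher and lower, so all genes shifted the same way. Each of the first 2 scalings removed 4 calls. These were Adam15 and Adamts10 in TF group 2, Mmp19 in TF group 1, and Mmp13 in TF group 3 relative to TF group 1. Scaled to the poly-A spikes, the genes higher and lower than in the control were 0 and 27, 2 and 26, and 3 and 23 in TF groups 1, 2 and 3, beside 2.74% and 55.3%, 4.14% and 44.4%, and 3.53% and 48.4% of all genes. Then 1 was lower in TF group 2 relative to TF group 1, 0 were higher and 0 lower in TF group 3 relative to TF group 2, and 2 higher and 0 lower in TF group 3 relative to TF group 1. Beside these stood 0.226% of all genes lower, 0.718% higher and 0.533% lower, and 2.09% higher and 0.694% lower. The direction turned in 20 changes that were called on the deposited scale or under the alternative, all by spike scaling. Changes whose sign turned without a call on either side were not counted. For the 54 genes these were Adam15 (-0.012 and -0.12 in TF groups 1 and 2), Adam19 (-0.75 in TF group 3), Adamts10 (-0.055 in TF group 2), Adamts4 (-0.70 in TF group 1), Mmp19 (-0.29 and -0.66 in TF groups 1 and 2), Mmp23 (-0.78 in TF group 1), Timp2 (-0.77, -0.59 and -0.59) and Timp4 (-0.65 in TF group 1). For related genes they were Pcsk5 (-0.69), Tek (-0.19), Egfl7 (-0.23), Epcam (-0.021) and Pdgfra (-0.81) in TF group 1, and Cst6 (-0.030), Atf3 (-0.080) and Dcn (-0.77) in TF group 3.

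Leaving out 1 array at a time gave 3 to 5 genes higher and 5 to 7 lower in TF group 1, 5 to 6 and 5 to 7 in TF group 2, and 6 to 8 and 6 to 7 in TF group 3. Between TF groups it gave 1 to 1 higher and 3 to 5 lower (TF group 2 against 1), 1 to 4 and 0 to 1 (TF group 3 against 2), and 4 to 5 and 3 to 6 (TF group 3 against 1), and 21 to 24 genes by the F test.

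Replicate numbers did not pair the samples: over 18 pairs of same-numbered arrays, correlations of their deviations lay between -0.02 and 0.05. With the replicate block, 0 genes were lower in TF group 3 relative to TF group 2, since Adamts15 then had an adjusted p of 0.0549, and Adamts4 was no longer called in TF group 3 against TF group 1 (0.0535). Signals below 32 limit what 17 uncalled genes can show.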

Other observations

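Genes with related names outside the rule were read from the same fit. Adamtsl5, an ADAMTS-like protein without protease domain, was called lower in TF groups 1 and 3, against the negative control (log2 changes -0.76 and -0.92, SE 0.14, adjusted p of limma 0.00214 and 0.00065), and its change of -0.56 in TF group 2 was under the fold threshold. Adamtsl4 was not called, with 0.32, 0.02 and 0.06 (SE 0.13), nor was Adamdec1, with 0.23, 0.40 and 0.02 (SE 0.39).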
